A study of Mus musculus with 12 samples.

Results

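The proteins of the cytosolic ribosome were examined in whole ovaries of lethal yellow (LY) and black mice. Genes were taken by symbol, as Rpl or Rps followed by a number with an optional a, l, x or y ending, together with Rplp0, Rplp1, Rplp2 and Rpsa. Kinases of the Rps6k family and pseudogenes were left out, and each gene was represented by its probe with the highest mean log2 value. Of 36227 probes on the array, 21615 are annotated to a single gene and cover 18069 genes. The rule found 75 such probes for 58 genes, 39 of the large subunit and 19 of the small subunit, which lie on 18 chromosomes. Of these, 57 reached the limit of sensitivity in at least 1 group and were tested. Rpl3l, the striated muscle paralog of Rpl3, did not, with values between 0.0134 and 0.246 relative intensity units on the 12 arrays. Some ribosomal proteins, among them Rps6, Rpl10 and Rps27, have no such probe here and were not analysed here.

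Whole ovaries of 12 female mice were hybridised singly, and the mice form 4 groups of 3. LY mice are labelled C56BL/6J Ay/a (the methods write C57BL/6J), and black mice are labelled a/a on the same background. Mice of each genotype were 180 or 90 days old. All of them received Antide, a GnRH antagonist, at 10 μg/g on days 1 and 4, then eCG, a gonadotropin that drives follicle growth, at 1 IU/5 g of body weight. Ovaries were collected 36 h after eCG, on day 7, so the black mice carry the same suppression and stimulation as the LY mice. The Ay allele is a deletion that places agouti under the Raly promoter, so that agouti is made in nearly every tissue and obesity develops in adult life. The allele is therefore not specific to the ovary. Each array's values were divided by its median, so that 1 unit is the level of the median probe, and 0.2 units is the limit of sensitivity. The arrays of each age were run as a set, so an effect of age and one of the array set cannot be told apart.

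A ribosome is built from ribosomal RNA and many small, mostly basic proteins. The large subunit joins amino acids and the small subunit reads the mRNA. Ribosomal protein mRNAs are among the most abundant in growing cells. Many begin at a cytosine followed by an unbroken run of pyrimidines, the 5′ terminal oligopyrimidine tract, through which mTOR signalling and Larp1 set their translation. An array reads the amount of mRNA and not its translation. In the ovary, follicle growth and the store of ribosomes in the oocyte both depend on these proteins.

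Sequence around annotated starts, from RefSeq (GRCm38.p6), is shown for members that the results below turn on, because the pyrimidine run is the feature these mRNAs are known for. Of the 58 members, 46 had at least 1 annotated start among these sequences, 57 starts in all. A run was counted where 8 or more consecutive C or T letters on the strand of the gene touched the stretch from 5 bases before to 5 bases after the start. Each line gives 30 bases, 12 before and 18 from the start onward, 5′ to 3′ on the strand of the gene, with the run in capitals. Where a gene has several annotated starts, the line shows the one with the longest run. The first 5 are the members whose arrays separated by genotype at both ages.
Rps27l (chr9:66946074-66946103, plus strand): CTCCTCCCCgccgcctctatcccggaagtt
Rps26 (chr10:128626489-128626518, minus strand): gggcaagccgccggaTCCTCTTTCgagtct
Rps10 (chr17:27635227-27635256, minus strand): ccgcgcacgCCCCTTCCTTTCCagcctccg
Rpl13a (chr7:45128728-45128757, minus strand): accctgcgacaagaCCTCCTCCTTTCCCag
Rpl24 (chr16:55966263-55966292, plus strand): aagctgttgctaggaaacagactgggcgct
Rpl35 (chr2:39005114-39005143, minus strand): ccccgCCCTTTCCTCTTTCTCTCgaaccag
Rps7 (chr12:28635936-28635965, minus strand): tccggtttccacccacctacttccgctgtc
Rpl27 (chr11:101442233-101442262, plus strand): ctctgttcctgtctgctgctcgtgctgcta
Rpl26 (chr11:68901554-68901583, plus strand): gcggcaacttacagaaccggaagtcgcgtg

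Such a run was present at 19 of the 57 member starts (33.3%), against 9.72% of all 32851 annotated starts. Rps27l, Rps26, Rps10, Rpl13a and Rpl35 held one at the start shown, with lengths of 9, 9, 13, 14 and 18 letters. The start shown for Rps27l lies inside the gene, which begins at position 66944624. Its run lies wholly before that start, so an mRNA beginning there would not carry it. Rpl24, Rps7, Rpl27 and Rpl26 held none of 8 letters there. The letters CCGGAA, the core of the sequence that Ets family factors bind, searched on both strands of the 300 bases from 250 before to 50 after the start, were found at 26 of the 57 member starts (45.6%), against 14.9% of all. A match describes the letters in the window only, and annotated starts can differ from the starts used in the ovary.

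Ribosomal protein probes were among the brightest on every array. The median member lay at percentile 99.8 of the single-gene probes, 39 of the 58 members lay over percentile 99, and 46 over percentile 95. Between 33 and 37 of the 100 brightest probes of each array were members. The members made up 0.160% of the probes and 3.75% to 4.36% of the summed signal. By mean level over the 12 arrays, the first were Rpl41, which encodes the smallest ribosomal protein, at 269 units, Rpl19 at 265, Rps19 at 257, Rpl11 at 254 and Rpl32 at 253. These neighbours differ by less than the spread between mice. The 3 stalk proteins, which recruit elongation factors, had values of 202 to 286 units for Rplp0, 169 to 248 for Rplp2 and only 2.70 to 15.4 for Rplp1. A probe's brightness also depends on its sequence, so these levels do not rank the mRNAs.

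**Figure D1:**
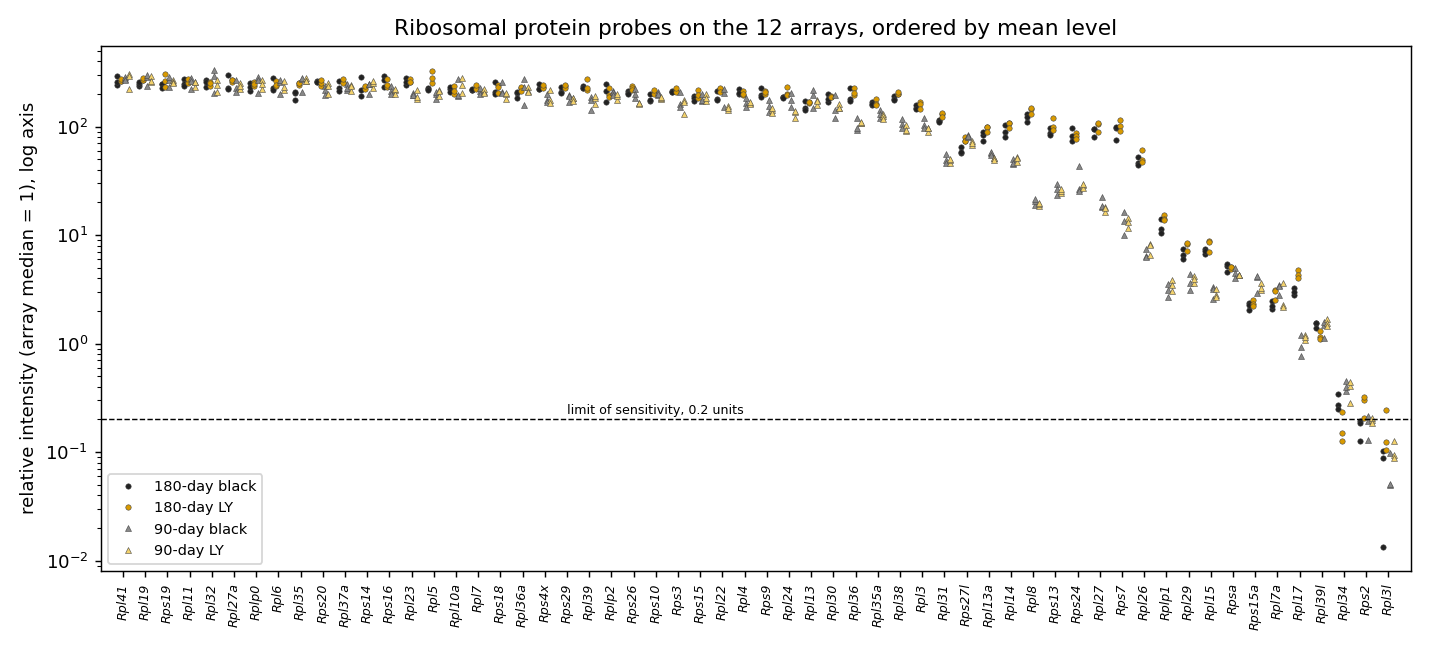
Relative intensity (log axis, array median 1) of the 58 ribosomal protein probes on each of the 12 arrays, ordered by mean level, with 180-day mice as circles and 90-day mice as triangles. Most members lie above 100 units in every group, in the middle stretch from Rpl31 to Rpl26 the ages are split except for Rps27l, whose ages overlap, and Rpl34, Rps2 and Rpl3l lie near or under the limit of 0.2 units.

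Probe annotation went in part with level, and its role in the low levels was not tested. The probe of 7 members is not annotated through a RefSeq mRNA, namely Rpl15, Rpl17, Rpl29, Rpl34, Rpl7a, Rps2 and Rpsa. All 7 had mean levels between 0.198 and 5.25 units. The other 51 had a median of 187 units, and 5 of them lay under 20 units. Rpsa, which also serves as a laminin receptor precursor, is 1 of these 7 and had 4.05 to 5.39 units. Rpl39l, the paralog of Rpl39 best known from the testis, had 1.09 to 1.67 units, while Rpl39 had 143 to 274 units. At the bright end, the highest value of any probe was between 270.6 and 364.6 units on each array, and 33 of the 79 probes tested with a mean over 150 units were members. Whether differences are compressed at this end of the scale was not tested.

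The label check held on every array. Agouti had 0.169 to 0.368 units in the black mice and 95.7 to 111 units in the LY mice, and Raly was lower in every LY mouse than in every black mouse of its age. Arrays correlated at 0.970 to 0.987 within a group, 0.962 to 0.984 between genotypes of an age and 0.918 to 0.938 between ages. On the second principal component (7.67% of the variance) replicate 1 of the 90-day black mice stood apart, and on the third (6.10%) replicate 1 of the 90-day LY mice did.

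The members shared part of their variation within groups. Deviations from the group means correlated between members with a mean of 0.16 over 1596 pairs and 12 arrays, compared with 0.0069 between all probes tested. Pairs of members share the array and its scaling, so this is a description. The median member had 195, 191 and 174 units in the 180-day black mice, 203, 200.1 and 204 in the 180-day LY mice, 175, 179 and 150 in the 90-day black mice and 145, 160.5 and 156 in the 90-day LY mice. All 3 LY mice lay above all 3 black mice at 180 days, and the genotypes overlapped at 90 days. Replicate 3 was the lowest black mouse at both ages, with 9 of 57 members above the group mean at 180 days and 12 at 90 days.

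**Figure D2:**
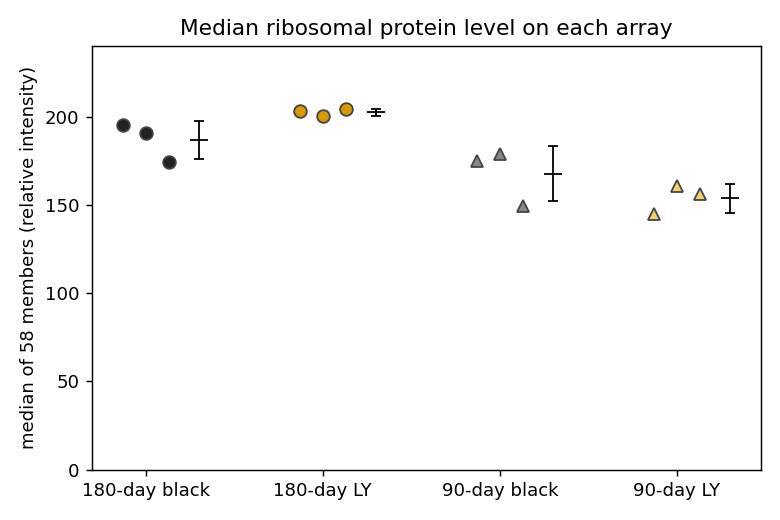
Median relative intensity of the 58 ribosomal protein probes on each array, by group, with 1 point per mouse and the mean ± SD of the 3 mice beside them. The 180-day LY mice lie at 200.1 to 204 units, above the 174 to 195 units of the 180-day black mice, and the 90-day groups overlap.

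In the older mice, the age the study used for obesity, the question was whether ribosomal protein mRNAs differ between LY and black ovaries. None of the 57 members passed the test in limma with Benjamini-Hochberg adjustment over all 31359 probes, in which 0.0415% of probes were called higher and 0.00319% lower in LY mice. The smallest adjusted p of a member was 0.178. At an unadjusted p under 0.05 there were 11 members, 19.3% of them against 12% of all probes. The median member difference was 0.12 on the log2 scale (1.08-fold higher in LY mice), against 0.03 over all probes, and 47 of 57 estimates (82.5%) were above 0, against 55.9%. RNA of a whole ovary cannot tell fewer cells of a type from less RNA per cell.

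Bright probes of other genes were shifted in the same way. Of the 1296 single-gene probes of other genes between 20 and 150 units, 937 (72.3%) had an estimate above 0 at 180 days, and of the 25 over 150 units 19 did. The median differences of these probes were 0.10 and 0.04. For the members the corresponding medians were 0.19 (12 of 13 above 0) and 0.06 (27 of 33 above 0), and 0.19 (8 of 11) under 20 units. Whether the members' shares differ from those of other genes at the same level was not tested. With quantile normalization the median member difference was 0.03 and with cyclic loess it was -0.03, so the direction of the family as a whole at 180 days depended on how the arrays were scaled.

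Rps27l, a paralog of Rps27 that p53 can induce, gave the smallest p at 180 days. It had 56.8, 65.5 and 57.8 units in the 180-day black mice and 79.8, 73.6 and 73.8 units in the LY mice. The genotypes did not overlap, with LY mice higher. The difference was 0.34 ± 0.08 (log2, SE), 1.26-fold, with an adjusted p of 0.178 in limma.

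Rpl17, a protein at the exit tunnel of the large subunit, is read here by a probe not annotated through a RefSeq mRNA. It had 2.81, 3.25 and 2.98 units in the black mice and 4.74, 4.31 and 4.06 in the LY mice, again without overlap. The difference was 0.53 ± 0.15 (adjusted p 0.217 in limma), and its 2 dimmer probes gave 0.28 and 0.26.

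Rpl5, which binds 5S ribosomal RNA and, with Rpl11, the p53 regulator Mdm2, had 224, 226 and 217 units in the black mice and 254, 324 and 279 in the LY mice. These groups did not overlap, with a difference of 0.36 ± 0.10 (adjusted p 0.238 in limma). A second bright probe of Rpl5, with group means of 185 and 177 units, gave -0.06, so the 2 bright probes disagree. Another, dim probe, with 2.30 to 2.52 units in the black mice and 2.98 to 3.19 in the LY mice, gave 0.36. Its partner Rpl11 had a difference of 0.06 ± 0.11 (adjusted p 0.869 in limma).

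Rps2 and Rpl34 had the largest estimates and lay at the limit of sensitivity. Rps2 had 0.126, 0.192 and 0.186 units in the black mice, all under the limit, and 0.302, 0.320 and 0.205 units in the LY mice. Set against the limit it was at least 1.35-fold higher in LY mice, with an adjusted p of 0.277 in limma. Rpl34 had 0.341, 0.272 and 0.251 units in the black mice and 0.149, 0.233 and 0.126 units in the LY mice, 2 of which were under the limit. The groups did not overlap. The fitted difference of -0.81 ± 0.24 (adjusted p 0.238 in limma) depended on values under the limit, and with a floor of 0.2 units it was -0.44.

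All 3 LY mice lay above all 3 black mice for 15 of the 57 members (26.3%), and 14.2% of all probes did so. These were Rpl13a, Rpl17, Rpl19, Rpl24, Rpl31, Rpl35, Rpl36a, Rpl38, Rpl5, Rpl7, Rpl7a, Rps10, Rps2, Rps26 and Rps27l. By level, these were 4 of 13 members between 20 and 150 units, where 399 of 1296 probes of other genes (30.8%) separated this way, and 8 of 33 over 150 units, where 6 of 25 did. Quantile normalization gave 7 members higher and 2 lower, and cyclic loess 7 higher and 7 lower. With the arrays scaled by their medians, only Rpl34 and Rpl39l separated with LY mice lower, against 8.32% of all probes. Rpl39l had 1.55, 1.54 and 1.38 units in the black mice and 1.32, 1.15 and 1.09 in the LY mice (difference -0.33 ± 0.13, adjusted p 0.369 in limma). Its parent Rpl39 had a difference of 0.05 ± 0.12.

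In the 90-day mice, the younger age of the same comparison, none of the 57 members passed the test either, with 0.00638% of all probes called higher and 0.0383% lower in LY mice. At an unadjusted p under 0.05 there were 4 members (7.02%), against 13.3% of all probes. The 4 were Rpl24, Rps26, Rps27l and Rpl22, with estimates of -0.41, -0.30, -0.22 and -0.35. The median member difference was -0.03, against -0.00 over all probes, and 21 of 57 estimates (36.8%) were above 0, against 49.1% of all probes. Between 20 and 150 units 3 of 13 members were above 0, where 342 of 1296 probes of other genes (26.4%) were, and over 150 units 12 of 33 members, where 6 of 25 were. Under 20 units 6 of 11 members were above 0, with a median of 0.10, where 46.5% of probes of other genes were. The count of 21 fell to 12 without replicate 3 of the 90-day black mice and rose to 28 without their replicate 2. With quantile normalization the median was 0.01, with the 75th percentile of each array as scale 0.04, and with cyclic loess 0.08.

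Rpl24, a protein at the bridge between the subunits, had the largest estimate at 90 days. It had 177, 202 and 150.2 units in the 90-day black mice and 119, 137 and 139 in the LY mice. The groups did not overlap, and the difference was -0.41 ± 0.12 (adjusted p 0.195 in limma). Rps26, which lies at the mRNA exit of the small subunit, had 182, 223 and 198 units in the black mice and 164, 161 and 165 in the LY mice. Its difference was -0.30 ± 0.09 (adjusted p 0.205 in limma), also without overlap. Rpl22, best known for its role in T cell development, had 203, 222 and 151 units against 142, 155 and 149, so its groups overlapped at replicate 3 of the black mice. It had a difference of -0.35 ± 0.14 (adjusted p 0.315 in limma), while its second bright probe gave -0.05 and its dim probe 0.15.

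All 3 LY mice lay below all 3 black mice at 90 days for 7 members (12.3%), against 9.43% of all probes. These were Rpl13a, Rpl24, Rpl3, Rps10, Rps18, Rps26 and Rps27l. No member separated with LY mice higher, where 6.81% of all probes did. Both counts depended on the scaling, with 3 members higher and 3 lower under quantile normalization and 4 higher and 2 lower under cyclic loess. Rps27l had 83.0, 80.7 and 82.2 units in the black mice and 74.2, 67.1 and 70.3 in the LY mice, a difference of -0.22 ± 0.08 (adjusted p 0.306 in limma).

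**Figure D3:**
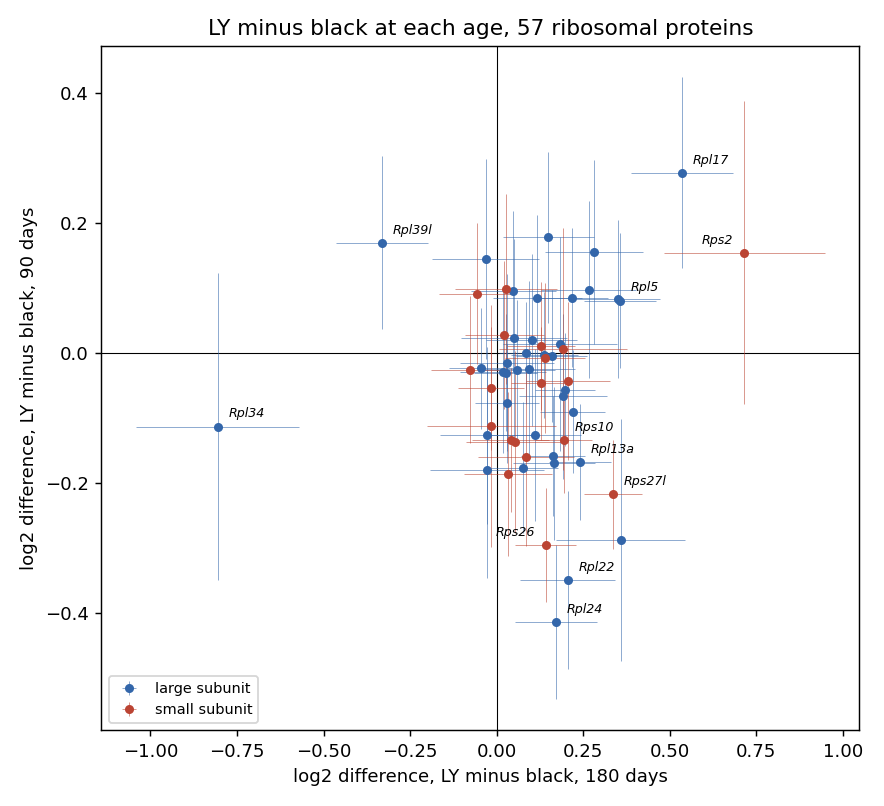
Log2 difference of LY from black mice at 180 days (horizontal) and at 90 days (vertical) for the 57 members tested, with bars of 1 SE in each direction, large subunit proteins in blue and small subunit proteins in red. Most points lie to the right of 0, at a median of 0.12, and just under 0 on the vertical axis, at a median of -0.03, with Rpl34 and Rps2 far out at either side.

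The genotype difference was then compared between the ages. No member passed the test of this interaction, nor did any of the 31359 probes (0% called). At an unadjusted p under 0.05 there were 10 members (17.5%), against 12.1% of all probes, and the median interaction was 0.15, against 0.03 over all probes. Rps27l had the smallest p, with an interaction of 0.55 ± 0.12 and an adjusted p of 0.114 in limma. When the spread was fitted with an intensity trend, Rps27l alone among the members passed (adjusted p 0.0482 in limma). The share of all probes called in that fit is not given here, so this call is not compared with it.

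For 5 members, all LY mice lay above all black mice at 180 days and below them at 90 days. These were Rpl13a, Rpl24, Rps10, Rps26 and Rps27l, 8.77% of the members, against 1.79% of all probes. By level, these were 2 of 13 members between 20 and 150 units, where 110 of 1296 probes of other genes (8.49%) showed the pattern, and 3 of 33 over 150 units, where 0 of 25 did. Counts this small were not tested against each other. The opposite order occurred in 0 members and 0.415% of all probes. The number of such members was 3 with the 75th percentile as scale and 0 with quantile normalization or cyclic loess.

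The differences between genotypes in these 5 members lay between -0.41 (Rpl24 at 90 days) and 0.34 (Rps27l at 180 days). Rps26 had 212, 203 and 199 units in the 180-day black mice and 236, 226 and 217 in the LY mice, a difference of 0.14 ± 0.09 (adjusted p 0.561 in limma) beside the -0.30 at 90 days. Rpl24 had 186, 186 and 182 units in the black mice and 199, 231 and 195 in the LY mice, a difference of 0.17 ± 0.12 (adjusted p 0.604 in limma). At 180 days the gap between groups in Rps26 was smaller than the range of the LY mice.

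Rps10, a small subunit protein that is ubiquitinated when ribosomes stall, had 174, 199 and 175 units in the 180-day black mice, 207, 200.2 and 218 in the 180-day LY mice, 195, 209 and 199.9 in the 90-day black mice and 181, 184 and 186 in the 90-day LY mice. Its differences were 0.19 ± 0.08 and -0.13 ± 0.08. Rpl13a, which can leave the ribosome to silence mRNAs after interferon, had 82.8, 88.4 and 72.9 units in the 180-day black mice, 98.6, 99.8 and 89.3 in the 180-day LY mice, 57.1, 58.2 and 55.2 in the 90-day black mice and 51.1, 50.9 and 49.7 in the 90-day LY mice. The nearest mice of the 180-day genotypes had 88.4 and 89.3 units, and in Rps10 199 and 200.2 units, so these separations were narrow. For Rpl13a the differences were 0.24 ± 0.09 and -0.17 ± 0.09. Rpl13a was also brighter in all 180-day mice than in all 90-day mice.

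**Figure D4:**
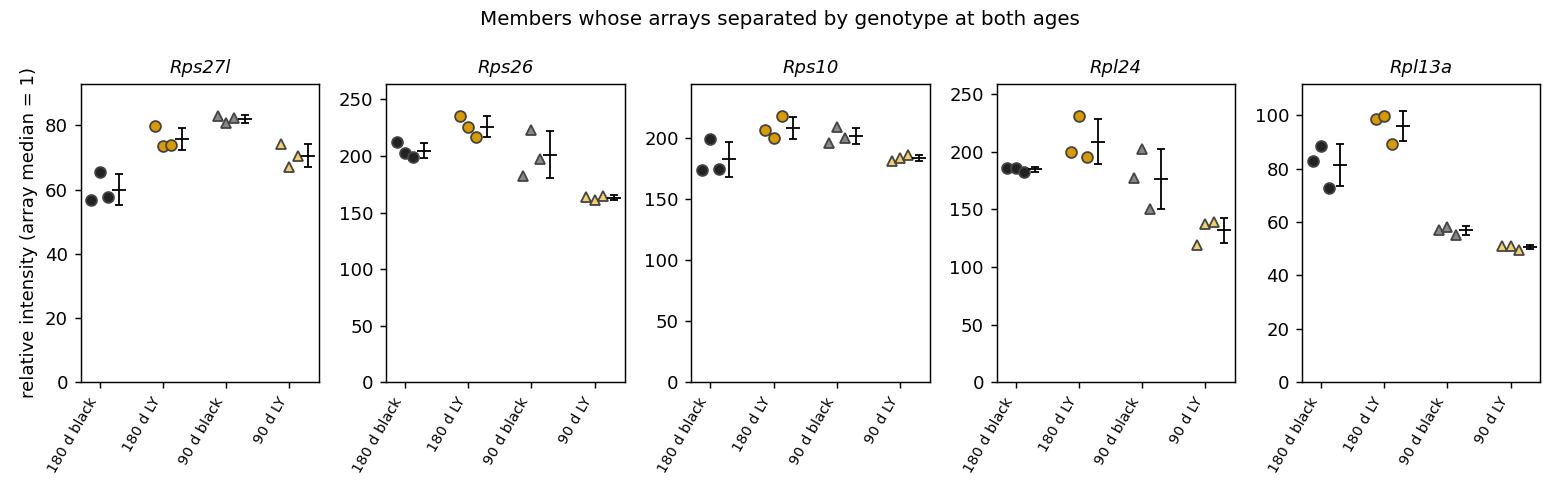
Relative intensity (array median 1, axes from 0) of Rps27l, Rps26, Rps10, Rpl24 and Rpl13a, with 1 point per mouse and the mean ± SD of each group of 3 beside the points. In each panel the 180-day LY mice lie above the 180-day black mice and the 90-day LY mice lie below the 90-day black mice, without overlap.

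The largest differences among the members lay between the ages. Of the 57 members, 36 passed the test between 180 and 90 days averaged over genotypes, 32 higher at 180 days (56.1%, against 33.8% of all probes) and 4 lower (7.02%, against 25.4%). The median member difference was 0.25, against 0.06 over all probes. Estimates were above 0 for 42 members (73.7%), against 54.5% of all probes, and every 180-day mouse lay above every 90-day mouse for 24 members (42.1%), against 20.2%. The direction depended on the scaling for much of the family. With quantile normalization 24 members were higher and 6 lower (median 0.11), and with cyclic loess 13 were higher and 37 lower (median -0.56). Shares of all probes under these scalings are not given here, so the members are not compared with them.

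By median, the difference was largest in members of intermediate level. Level is the mean over the same 12 arrays, so a difference between the ages itself moves a probe's level. Of the 13 members between 20 and 150 units, 12 were higher at 180 days and 1 was lower, with a median of 1.00. Of the 1296 single-gene probes of other genes at this level 42.1% were higher and 18.3% lower, with a median of 0.13. The 33 members over 150 units had a median of 0.10 and a range of -0.23 to 0.48, and 14 of them were called higher, where 11 of 25 probes of other genes at that level were. The 11 members under 20 units had a median of 0.19 and a range of -0.84 to 2.79, with 6 higher and 2 lower.

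Rpl8, which lies near the peptidyl transferase centre, gave the smallest p of all members. It had 111, 131 and 123 units in the 180-day black mice, 145, 149.7 and 129.6 in the 180-day LY mice, 18.9, 20.5 and 21.7 in the 90-day black mice and 18.4, 19.4 and 19.5 in the 90-day LY mice. The ages were far apart in both genotypes, with a difference of 2.73 ± 0.07, 6.64-fold (adjusted p 8.92e-09 in limma). Rps7 had 74.4 to 116 units at 180 days and 9.95 to 16.3 at 90 days, a difference of 2.89 ± 0.13, 7.39-fold (adjusted p 5.42e-08 in limma). Rpl26, which can bind p53 mRNA, had 44.0 to 60.9 units at 180 days and 6.28 to 8.23 at 90 days, a difference of 2.79 ± 0.09, 6.94-fold (adjusted p 2.44e-08 in limma).

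A further 7 members were 2.43-fold or more higher at 180 days. Rpl27 rose from 16.4 to 22.5 units at 90 days to 80.8 to 109 units at 180 days, 5.14-fold. Rplp1, of the stalk, was 3.99-fold higher, Rps13 3.70-fold, Rpl17 3.46-fold, Rps24 2.78-fold, Rpl15 2.57-fold and Rpl31 2.43-fold, each with a higher value in every 180-day mouse. Under quantile normalization and cyclic loess Rpl8 gave 2.52 and 2.24, Rps7 2.45 and 2.49, Rpl26 2.47 and 2.54, Rpl27 1.87 and 1.92, Rps13 1.29 and 1.41, Rpl17 1.82 and 1.84 and Rpl31 0.64 and 0.68, so these kept their direction under both scalings. The difference of Rpl17 rests on its brightest probe, since its other probes gave 0.51 and -0.04. The stalk partners of Rplp1 did not pass the test, with -0.06 ± 0.10 for Rplp0 and 0.06 ± 0.10 for Rplp2.

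The 4 members lower at 180 days were Rpl34, Rps15a, Rpl35 and Rps27l. Rps15a had 2.06 to 2.54 units at 180 days and 2.92 to 4.21 at 90 days, a difference of -0.61 ± 0.10 (adjusted p 0.000305 in limma). Rpl34 had a difference of -0.84 ± 0.17, at 0.126 to 0.341 units at 180 days and 0.284 to 0.447 at 90 days (adjusted p 0.00133 in limma). Rpl35, a protein of the exit tunnel, had 205, 210.0 and 174 units in the 180-day black mice and 244, 251 and 255 in the LY mice, beside 274, 281 and 208 and 279, 260.4 and 262 units at 90 days, a difference of -0.23 ± 0.09 (adjusted p 0.0391 in limma). Rps27l had a difference of -0.18 ± 0.06 (adjusted p 0.0256 in limma), and this call was lost with the 75th percentile as scale (adjusted p 0.102). It was also lost without replicate 1 or 3 of the 180-day black mice, replicate 2 or 3 of the 180-day LY mice or replicate 1 of the 90-day LY mice (adjusted p up to 0.0638).

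A large set of probes with no gene named in the annotation differed between the ages by a similar amount. Of these, 676 had a mean level between 45 and 65 units. Their median was between 90.0 and 99.9 units on the 180-day arrays and between 27.8 and 36.6 units on the 90-day arrays, and their median difference was 1.57. Of the 676, 96.9% were higher at 180 days, where 44.4% of the 187 single-gene probes at that level were. Their median difference between genotypes was 0.05 at 180 days and 0.01 at 90 days. What these probes measure is not given in the sources used here, and their part in the difference between the ages was not tested.

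**Figure D5:**
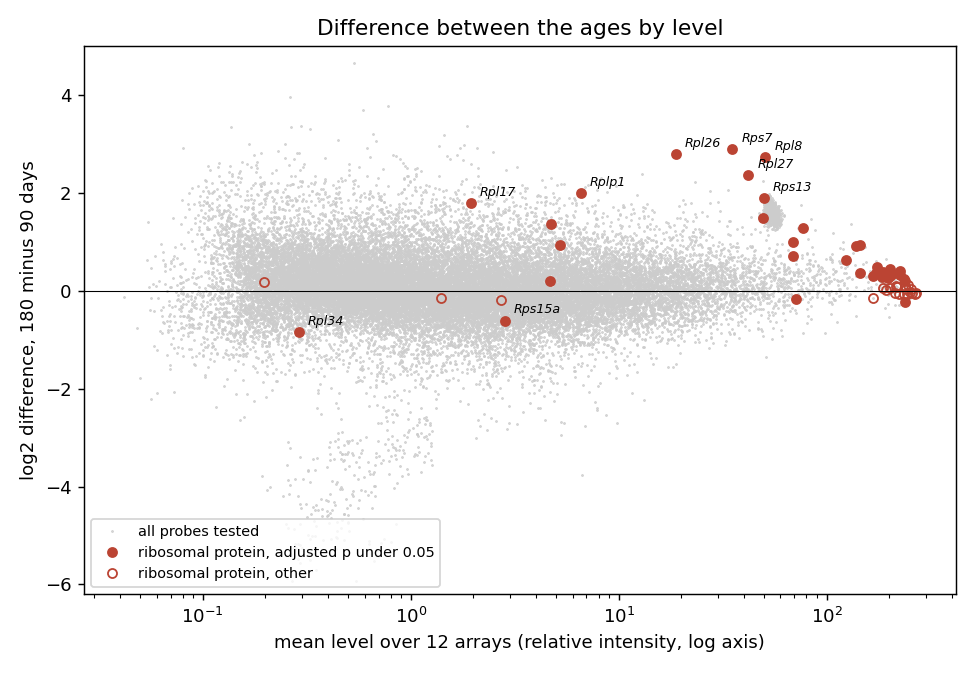
Log2 difference between 180 and 90 days against mean level over the 12 arrays (log axis) for all 31359 probes tested in grey and the 57 members in red, filled where the adjusted p was under 0.05. Most members with a large difference lie between the levels of Rplp1 and Rpl31, near a dense grey cluster of probes without a gene name, with Rpl17 and Rpl15 at lower levels, and the brightest members converge near 0.

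Where a gene had several probes, they often disagreed on the difference between the ages. The 75 probes include 17 that were not the brightest of their gene. Rpl11 had 0.04 by its brightest probe and 1.80 by the other, which had group means of 90.4, 98.7, 24.3 and 30.8 units. Rps4x, whose gene lies on the X chromosome, had 0.34 and 1.74, and Rpl27a had 0.12, 0.90 and 1.72. Rps20 had 0.20 by its brightest probe and -0.59 by a probe with means of 1.85 and 2.16 units at 90 days. The 3 probes of Rpl7 ran the same way, with 0.09, 0.19 and 0.48. Between genotypes, probes of 1 gene differed by over 0.5 in the log2 difference for Rpl22 (0.21 against -0.36 at 180 days and -0.35 against 0.15 at 90 days) and Rpl29 (0.27 against -0.39 at 180 days), in each case for a dim second probe.

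Genes that work with the ribosome were described by lists. No gene of any of the 7 lists was called at either age between genotypes. The largest was the mitochondrial ribosomal proteins, which build the separate ribosome of that organelle, with 70 genes tested. Their median was 0.19 at 180 days, with 62 estimates above 0, and -0.10 at 90 days, with 19 above 0. Of all probes 55.9% and 49.1% were above 0 at these ages. Of single-gene probes outside the members between 20 and 150 units, 72.3% and 26.4% were. Mrpl20 averaged 44.2 units in the 180-day black mice and 58.5 in the LY mice (0.41 ± 0.09, adjusted p 0.157 in limma), and Mrpl33 had 75.4 and 96.0 (0.35 ± 0.09, adjusted p 0.198 in limma). Between the ages 42 of the 70 were higher and 12 lower at 180 days, where 33.8% of all probes were higher and 25.4% lower.

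A list of 11 genes, mostly translation factors, was taken for having the pyrimidine run at the mRNA start. Their starts were not examined here. They had a median of 0.07 at 180 days (9 above 0) and -0.03 at 90 days (2 above 0). Between the ages 9 of the 11 were higher at 180 days, among them Eef1g at 1.01, and 0 lower. Of all probes 33.8% were higher and 25.4% lower. Other initiation factors (16 genes) had 0.08 and -0.16, and ribosome biogenesis factors (21 genes) 0.10 and -0.04. RNA polymerase I with its factors, a list that also held Polr2a of RNA polymerase II, had 0.01 and -0.17 (9 genes). Eif2s2, which lies beside Raly in the genome, had means of 57.1 and 42.4 units at 180 days, a difference of -0.43 ± 0.12 (adjusted p 0.226 in limma). At 90 days its means were 35.0 and 22.2 units, a difference of -0.65 ± 0.12 (adjusted p 0.0822 in limma). All LY mice lay below all black mice at both ages. Ribosomal protein genes outside the rule had values like those of the members. Rpl36al had 137 and 162 units at 180 days, a difference of 0.25, and Fau, Rpl7l1 and Rps3a1 had 0.12, 0.06 and -0.03.

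Growth control of translation showed no common direction between genotypes. The 21 genes of the list had medians of -0.01 at 180 days and -0.04 at 90 days. Mtor, the kinase, averaged 5.31 units in the 180-day black mice and 5.26 in the LY mice. Larp1, which binds the terminal pyrimidine tract, had 32.6 and 32.8 units. Eif4ebp1, an inhibitor of cap binding that mTOR phosphorylates, had 23.5 and 28.4 units (0.28, adjusted p 0.369 in limma), and Pdcd4, an inhibitor of the helicase Eif4a, had 2.99 and 2.34 units (-0.36, adjusted p 0.193 in limma). Myc, which drives ribosome production, had 3.88 and 4.60 units at 180 days and 10.3 and 7.26 at 90 days.

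Markers of the ovary's cell types also moved between genotypes without passing the test. The summed level of 9 granulosa cell markers was 256 to 336 units in the 180-day black mice and 181 to 243 in the 180-day LY mice, and 8 of the 9 were lower in LY mice (median -0.46). At 90 days the sums were 285 to 379 and 279 to 410 units. The summed level of 10 oocyte markers was 72.8 to 96.6 units in the 180-day black mice and 48.4 to 71.9 in the LY mice, with 9 of 10 lower. The 4 theca and interstitial markers had a median of 0.49 at 180 days, with 3 of 4 above 0. Their sums were 214 to 274 units in the 180-day black mice and 256 to 395 in the LY mice, and no marker of these 3 lists was at 0. At 90 days the medians were 0.25 for granulosa cells, 0.14 for oocytes and -0.19 for theca and interstitial cells. Luteal cells (3 markers) had medians of -0.48 at 180 days and -0.82 at 90 days, and the surface epithelium (6 markers) -0.30 and -0.76. Adipocytes (5 markers) had 0.05 and -0.66, and oviduct and motile cilia (4 markers) -0.07 and -0.62. Medians at 180 and 90 days were -0.02 and 0.09 for 5 markers of leukocytes, 0.06 and -0.20 for 4 of endothelium and 0.04 and 0.03 for 5 of stroma and smooth muscle, and the single erythroid marker tested had 0.63 and 0.09. The part of any of these cells in the difference of the ribosomal proteins was not tested.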

How the data were processed

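Ovarian RNA of 12 mice was hybridized to CodeLink mouse whole genome arrays. Per the labels and the methods, the authors scanned with GenePix, corrected background with the CodeLink software and normalized in GeneSpring to the 50th percentile of each slide. The deposited intensity values are linear and not centred by gene, although the methods also name a per-gene median. Precision is limited by the 3 mice per group.

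For the present values, arrays were scaled to a median of 1 unit, floored at 0.01 units and taken to log2. The 31359 of 36227 probes whose mean reached 0.2 units in some group were fitted with limma 3.58.1 in R 4.3.3, as 4 group means over 12 arrays, with Benjamini-Hochberg adjustment over all of them and a threshold of 0.05. Fold changes of dim probes depend on the floor. Names come from the platform annotation, and gene identifiers changed 0 of them. Replicates are separate mice. Alternatives changed the scaling, floor, filter, variance model, array weights, replicate block, probe and test, and left out each array.

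Members, gene lists and alternatives were chosen with earlier results of these data known. Named genes are members called in a comparison (up to 10 in each direction), the 5 members of smallest p in each comparison and of highest level, members near the limit, paralogs and their parents, stalk proteins, Rpsa, Rpl5, Rpl11, Rps19 and Rps26, members whose probes differ by over 0.5, up to 3 genes of each list, Mtor, Larp1, Eif4ebp1 and Myc. Other genes named, the split by level and the probes without a gene name were chosen after their values were seen.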

Additional observations from a re-analysis of the deposited data

How the results depend on the processing

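Of 202 recomputed counts and medians of the comparisons, 190 stayed near the main value. A median was taken as near within 0.091 of it, whatever its sign, and a count when of similar size. Of 1256 recomputed values of single members, 1218 kept their direction and stayed on the same side of the threshold. No member was called between genotypes at either age under any scaling, floor, filter or limma setting, with the block or with any array left out. The methods' t-test called 10 members at 180 days (9 higher, 1 lower) and 5 at 90 days (all lower) without adjustment, and 0 with it. Shares of all probes under the alternatives are not given here. Leaving out 1 array at a time gave 0 to 0 members called at 180 days, at 90 days and in the interaction, and 30 to 35 between the ages. The medians then ran from 0.09 to 0.14 at 180 days, -0.08 to -0.01 at 90 days, 0.09 to 0.23 in the interaction and 0.22 to 0.29 between the ages. With quantile normalization the median was 0.021 in the interaction and 0.11 between the ages. Cyclic loess gave -0.026 at 180 days, 0.078 at 90 days, -0.087 in the interaction and -0.56 between the ages, and the cause was not tested. An intensity trend called 1 member, Rps27l, in the interaction. Without the members over 150 units, a choice made after seeing the data, the median was 0.25 in the interaction and 0.93 between the ages, with 21 members called, fewer because fewer were counted. Between the ages Rpl13a turned to -0.26 with quantile normalization, and Rps26, Rpl24 and Rpl5 turned to -0.64, -0.48 and -0.61 with cyclic loess. Members separated by genotype at 180 days numbered 15, and 25 to 27 without replicate 1 or 2 of the black mice or replicate 3 of the LY mice, where fewer mice were compared. Same-numbered mice deviated with correlations of -0.00, -0.07 and -0.06 at 180 days and 0.15, 0.07 and 0.05 at 90 days, so the numbers were not taken to pair the mice. With a replicate block the members called were 0 at 180 days, 0 at 90 days, 0 in the interaction and 35 between the ages.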
